A study of Homo sapiens with 6 samples.

Results

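The genes described here are 10 members of the Hippo pathway and its YAP-TEAD output, out of 30735 genes listed for each sample. They comprise the coactivators YAP1 and WWTR1 (which encodes TAZ), the DNA-binding partners TEAD1 and TEAD4, the inhibitory kinases LATS1 and LATS2, and the target genes CCN1 (formerly CYR61), CCN2 (formerly CTGF), ANKRD1 and AMOTL2. They were found by matching Ensembl identifiers to these symbols, and all 10 were among the 12527 genes that reached 1 RPKM or more in 3 or more samples and so were tested. RPKM is the number of reads scaled to gene length and to the read total of the library, so that levels can be compared between genes. The samples were 3 libraries of PANC-1 cells transfected with CD73 siRNA and 3 of PANC-1 cells transfected with a negative control. PANC-1 is an established line from a human pancreatic ductal adenocarcinoma, and CD73 is the surface enzyme encoded by NT5E. Cells of both groups grew in DMEM with fetal bovine serum and were transfected with Lipofectamine 3000 without serum. The siRNA dose and the time of harvest are not given in the sources used here, and all knockdown samples came from the same siRNA product in the same line.

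The Hippo pathway restrains growth through a kinase cascade in which LATS1 and LATS2 phosphorylate YAP and TAZ and keep them out of the nucleus. When the kinases are inactive, YAP and TAZ enter the nucleus, bind TEAD factors and switch on genes such as CCN1, CCN2 and ANKRD1. LATS2 and AMOTL2 are targets as well as inhibitors, and so form negative feedback. The main control acts on phosphorylation and location of the YAP and TAZ proteins, which mRNA levels do not measure. NT5E itself appears in published lists of YAP and TAZ targets.

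The TEAD factors bind the motif GGAATG, also called the MCAT element, and the promoters of several members carry it. RefSeq promoter windows (GRCh38.p14, 250 bases before to 50 bases after a transcription start) were at hand for 7 of the 10 members, namely YAP1, WWTR1, LATS1, LATS2, CCN2, ANKRD1 and AMOTL2. These genes had 10 windows, since some have several starts. On either strand, GGAATG occurred in 5 of the 10 windows, of 5 genes, and in 14.0% of all 35116 windows. The CCN2 window held 3 copies, a number reached in 0.128% of all windows, and the ANKRD1 window held 2. These windows are shown because their genes, among them the textbook YAP-TEAD targets CCN2 and ANKRD1, are described below. Each run of 30 bases is written on the strand of its gene, with the motif in capitals.
CCN2, chr6:131951524-131951553: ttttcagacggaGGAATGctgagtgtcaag
CCN2, chr6:131951455-131951484: ggtggggaGGAATGcgaGGAATGtccctgt
ANKRD1, chr10:90921290-90921319: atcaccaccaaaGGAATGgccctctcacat
ANKRD1, chr10:90921198-90921227: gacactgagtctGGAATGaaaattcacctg
YAP1, chr11:102110273-102110302: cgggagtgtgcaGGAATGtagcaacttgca
LATS2, chr13:21061560-21061589: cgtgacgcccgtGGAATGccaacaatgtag
AMOTL2, chr3:134374499-134374528: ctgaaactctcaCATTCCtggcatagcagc
The AMOTL2 copy lies on the opposite strand and reads CATTCC on the strand of the gene. Relative to the transcription start, the CCN2 copies began at positions -169, -104 and -95 and those of ANKRD1 at -220 and -128. The YAP1 copy began at -162, the AMOTL2 copy at -69 and the LATS2 copy at base 10 of the transcript. AMOTL2 had windows at different starts. Its copy lay in that at chr3:134374398-134374697, whereas that at chr3:134375368-134375667 held none. In WWTR1 and LATS1 these letters were not in the windows. A second motif, the AP-1 element TGANTCA (7.71% of all windows), was present in the windows of ANKRD1 and LATS1 alone among the 7 genes. The matches describe letters and not occupied sites.

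The read totals of the libraries, inferred from the deposited values, lay between 15009113 and 16836208. All read numbers given below were calculated back from the values with these totals. Mitochondrial genes took 4.10% to 6.20% of the reads so calculated. NT5E fell in the knockdown samples. It stood at 3.36, 6.85 and 8.22 RPKM in CD73 siRNA replicates 1, 2 and 3 and at 14.0, 13.9 and 17.1 RPKM in the controls, a log2 fold change of -1.23 (SE 0.26). Genes were called where limma, fitted to log2(RPKM + 1), gave a p below 0.01 before adjustment, the limit used by the study, and 3.13% of the 12527 genes passed it (1.82% higher and 1.31% lower). After adjustment over all genes 1 gene, or 0.00798%, was below 0.05 (limma, adjusted p), and none of them was a member; without adjustment 2 of the 10 members were below 0.05. Samples with the same replicate number deviated together (correlations of 0.20, 0.48 and 0.55 across genes). A fit with the number as a block is therefore given where it changed a call, and 7.57% of genes passed the threshold in it. Of the ductal markers, KRT8 and KRT18 reached 158 and 87.0 RPKM, whereas KRT7 stayed at or below 0.11 RPKM and EPCAM at or below 1.71 RPKM. KRT8 (log2 fold change -1.27) and KRT18 (-0.68) fell past the threshold, whereas EPCAM had 0.034 and CDH1 -0.12. The summed ductal list (6 genes) was 71.4 to 102 RPKM after CD73 siRNA and 136 to 254 RPKM in the controls, chiefly from KRT8 and KRT18. Its part in the results below was not tested. All samples were of the same line, and in bulk samples fewer cells expressing a gene and less of its RNA per cell cannot be told apart. Of the fibroblast list, 4 of 5 genes were listed, and they summed to 17.4 to 30.8 RPKM after CD73 siRNA and 18.8 to 31.3 RPKM in the controls, chiefly from COL1A1 and COL3A1. The leukocyte and endothelial lists summed to at most 0.25 and 0.09 RPKM in any sample.

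In the control cells the members spanned a wide range of levels per length. CCN1 was highest at 114 ± 67.0 RPKM (SD, n = 3), followed by CCN2 at 52.1 ± 18.7, WWTR1 at 44.8 ± 3.30, YAP1 at 28.9 ± 6.70 and AMOTL2 at 28.7 ± 10.2 RPKM. TEAD1 at 23.2 ± 2.89, TEAD4 at 20.0 ± 2.82, LATS1 at 10.3 ± 1.40, LATS2 at 5.69 ± 1.12 and ANKRD1 at 1.32 ± 1.29 RPKM followed. Neighbours in this order overlapped in their sample values for CCN2 and WWTR1, for YAP1 and AMOTL2, for AMOTL2 and TEAD1, and for TEAD1 and TEAD4. The other neighbours did not overlap. Between 12 reads (ANKRD1) and 7294 reads (CCN1) stood behind a value, so counting error weighs on ANKRD1 far more than on the other members.

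**Figure D1:**
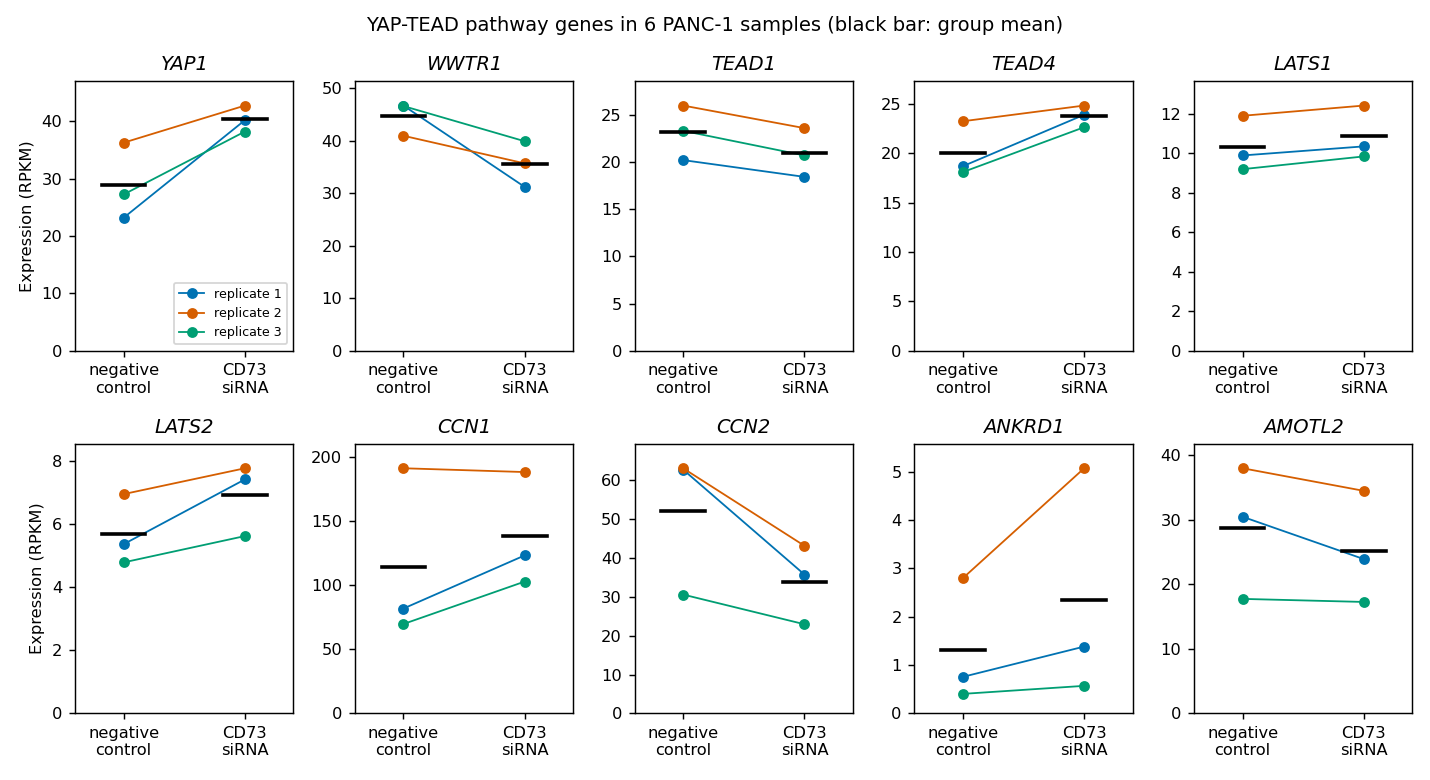
Expression (RPKM, linear axis from 0) of the 10 genes in each sample, with negative control on the left and CD73 siRNA on the right of each panel. Lines join samples with the same replicate number and black bars are group means. YAP1 and WWTR1 are the 2 panels in which the groups do not overlap. Replicate 2 is the highest in both groups in every panel except that of WWTR1.

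The coactivator mRNAs lay on opposite sides of their controls. YAP1 (ENSG00000137693, chromosome 11, 102110461 to 102233423 in GENCODE release 29, GRCh38, as for the positions that follow) stood at 40.2, 42.8 and 38.2 RPKM in CD73 siRNA replicates 1, 2 and 3 and at 23.2, 36.3 and 27.3 RPKM in the negative controls. Every knockdown sample was above every control, and control replicate 2 came nearest to them. The means were 40.4 ± 2.27 and 28.9 ± 6.70 RPKM (SD, n = 3 each), a ratio of 1.40. The log2 fold change was 0.49 (SE 0.16), and limma gave an unadjusted p of 0.0143 (adjusted p = 0.342), which misses the threshold. With the replicate number as a block, YAP1 rose past it (SE 0.11, unadjusted p of 0.0038 and adjusted p of 0.113 from limma). Replicate by replicate, YAP1 differed by 0.77, 0.23 and 0.47 on the log2 scale. Without negative control replicate 2, the unpaired log2 fold change was 0.66 and the unadjusted p from limma was 0.000725. Without negative control replicate 1 they were 0.35 and 0.0432. No other sample left out brought YAP1 past the threshold unpaired.

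WWTR1 (ENSG00000018408, chromosome 3, 149517235 to 149736714) encodes TAZ, the close relative of YAP that binds the same TEAD factors. It stood at 31.2, 35.7 and 39.9 RPKM after CD73 siRNA and at 46.7, 41.0 and 46.7 RPKM in the controls. Here every knockdown sample was below every control, and CD73 siRNA replicate 3 and control replicate 2 lay nearest to each other. The means were 35.6 ± 4.35 and 44.8 ± 3.30 RPKM (SD, n = 3 each). For the log2 fold change of -0.33 (SE 0.12) limma gave an unadjusted p of 0.0242 (adjusted p = 0.358). The block did not bring it past the threshold (unadjusted p of 0.0136), and the differences within replicates were -0.57, -0.19 and -0.22. Exact permutation tests of YAP1 and of WWTR1 each gave p = 0.1 (two-sided), the smallest that 3 samples against 3 allow.

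The ratio of the coactivators within each sample was formed after the values had been seen and is given as a description. YAP1 to WWTR1 was 1.29, 1.20 and 0.957 in CD73 siRNA replicates 1, 2 and 3 and 0.496, 0.885 and 0.584 in the controls. The ratio was thus higher in all 3 knockdown samples. It was above 1 in CD73 siRNA replicates 1 and 2 and just below 1 in replicate 3. Its place relative to 1 depends on the merged exon lengths behind RPKM, 6296 bases for YAP1 and 8413 for WWTR1. In reads not divided by length, YAP1 was below WWTR1 in every sample, nearest in CD73 siRNA replicate 1 (4071 and 4224 reads). The level of both mRNAs together was 76.0 ± 3.97 RPKM after CD73 siRNA and 73.7 ± 3.67 RPKM in the controls (SD, n = 3 each), and these sums overlapped between groups.

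The TEAD factors bring YAP and TAZ to DNA. Neither TEAD4 nor TEAD1 passed the threshold. TEAD4 (ENSG00000197905, chromosome 12, 2959330 to 3040673) stood at 23.9, 24.8 and 22.6 RPKM after CD73 siRNA and at 18.7, 23.2 and 18.1 RPKM in the controls. The groups overlapped only through control replicate 2, which exceeded CD73 siRNA replicate 3. Its log2 fold change was 0.25 (SE 0.12), with an unadjusted p of 0.0706 from limma and 0.0259 with the block. TEAD1 (ENSG00000187079, chromosome 11, 12674591 to 12944483) stood at 18.4, 23.6 and 20.7 RPKM and at 20.2, 26.0 and 23.3 RPKM in the controls. Groups overlapped widely, yet TEAD1 was lower in 3 of 3 numbered pairs by nearly equal amounts, -0.13, -0.13 and -0.16 on the log2 scale. Its log2 fold change of -0.14 had a 95% confidence interval of -0.44 to 0.16, and of -0.32 to 0.04 with the block. The ratio of TEAD4 to TEAD1, formed after the values were seen from genes on opposite sides of 0 and given as a description, was 1.30, 1.05 and 1.09 in the knockdown samples and 0.925, 0.894 and 0.776 in the controls, without overlap. TEAD3 and TEAD2, which are not among the 10 genes, were lower expressed at 4.81 ± 0.62 and 4.31 ± 0.92 RPKM in the controls (SD, n = 3 each), with log2 fold changes of -0.11 and 0.02.

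**Figure D2:**
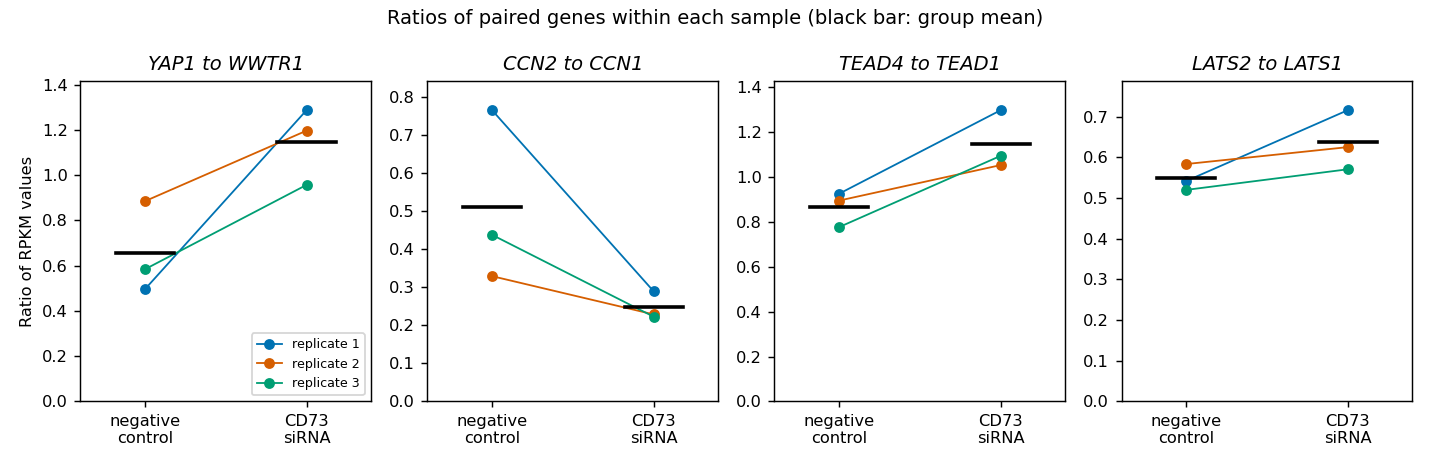
Ratios of RPKM values within each sample for 4 gene couples, on linear axes from 0, with negative control on the left and CD73 siRNA on the right. Lines join samples with the same replicate number and black bars are group means. The groups do not overlap for YAP1 to WWTR1, CCN2 to CCN1 and TEAD4 to TEAD1, and overlap for LATS2 to LATS1. The couples were formed after the values were seen and are a description. For YAP1 to WWTR1 the separation follows from that of each gene.

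The LATS kinases, which phosphorylate YAP and TAZ, showed no member past the threshold. LATS1 (ENSG00000131023, chromosome 6, 149658153 to 149718256) stood at 10.3, 12.4 and 9.83 RPKM after CD73 siRNA and at 9.88, 11.9 and 9.19 RPKM in the controls. The groups overlapped almost completely, and in both groups replicate 2 was highest and replicate 3 lowest. LATS1 had a log2 fold change of 0.07, with a 95% confidence interval of -0.24 to 0.37, or -0.12 to 0.25 with the block. Its sign turned without CD73 siRNA replicate 2 (-0.023) and also when negative control replicate 3 was left out (-0.0041). LATS2 (ENSG00000150457, chromosome 13, 20973032 to 21061547), which is also a YAP target, stood at 7.40, 7.76 and 5.61 RPKM and at 5.35, 6.94 and 4.78 RPKM in the controls. The groups overlapped, while within replicates the differences were 0.40, 0.14 and 0.19. Its log2 fold change of 0.25 (SE 0.16) had an unadjusted p of 0.164 from limma and of 0.0329 with the block. The ratio of LATS2 to LATS1 was 0.637 ± 0.073 after CD73 siRNA and 0.548 ± 0.032 in the controls (SD, n = 3 each), with overlap.

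The most used readouts of YAP-TEAD activity, CCN1 and CCN2, are secreted matricellular proteins of the same family, and they lay on opposite sides of 0. CCN2 (ENSG00000118523, chromosome 6, 131948176 to 131951373), whose promoter has the 3 motif copies printed above, stood at 35.7, 43.1 and 22.9 RPKM in CD73 siRNA replicates 1, 2 and 3. Its control values were 62.7, 63.0 and 30.6 RPKM, so that the groups overlapped through control replicate 3 alone. Within replicates CCN2 was lower in 3 of 3 pairs, by -0.79, -0.54 and -0.40 on the log2 scale. The means were 33.9 ± 10.2 and 52.1 ± 18.7 RPKM (SD, n = 3 each), a ratio of 0.651. The log2 fold change of -0.58 (SE 0.31) had an unadjusted p of 0.103 from limma. With the replicate number as a block, CCN2 fell past the threshold (SE 0.10, unadjusted p of 0.000677 and adjusted p of 0.113 from limma), the smallest p of the 10 genes in that fit. Without negative control replicate 3 the unpaired log2 fold change was -0.92, with an unadjusted p of 0.00614, and without CD73 siRNA replicate 3 it was -0.33.

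CCN1 (ENSG00000142871, chromosome 1, 85580761 to 85583962) stood at 123, 188 and 103 RPKM after CD73 siRNA and at 81.8, 191 and 69.7 RPKM in the controls. Replicates 1 and 3 were higher after CD73 siRNA, by 0.59 and 0.55 on the log2 scale, whereas both replicate 2 samples were high and differed by only -0.02. The log2 fold change was 0.37 (SE 0.37), with an unadjusted p of 0.348 from limma and of 0.0237 with the block. Several single samples moved this value: without control replicate 2 the log2 fold change was 0.82 with an unadjusted p of 0.00975. It was 0.56 without CD73 siRNA replicate 3, 0.21 without control replicate 1, 0.13 without CD73 siRNA replicate 2 and 0.094 without control replicate 3. The ratio of CCN2 to CCN1, likewise formed after the values were seen and a description, was 0.290, 0.229 and 0.223 after CD73 siRNA and 0.766, 0.330 and 0.438 in the controls. The ratios did not overlap, in a couple chosen for its opposite signs.

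ANKRD1 (ENSG00000148677, chromosome 10, 90912096 to 90921276), a nuclear ankyrin-repeat cofactor, was the least expressed member. It stood at 1.38, 5.07 and 0.570 RPKM after CD73 siRNA, from 44, 158 and 19 reads, and at 0.756, 2.80 and 0.404 RPKM in the controls, from 24, 86 and 12 reads. The value was higher after CD73 siRNA in 3 of 3 pairs, while replicate 2 was several times above the others in both groups. Its log2 fold change of 0.43 (SE 0.52) had an unadjusted p of 0.44 from limma and of 0.0197 with the block. The added 1 RPKM dampens the change of a gene this low, and the ratio of the group means was 1.77.
AMOTL2 (ENSG00000114019, chromosome 3, 134355874 to 134375479) encodes an angiomotin protein that holds YAP in the cytoplasm. It stood at 23.9, 34.4 and 17.3 RPKM after CD73 siRNA and at 30.4, 37.9 and 17.7 RPKM in the controls, with wide overlap. AMOTL2 had a log2 fold change of -0.17, with a 95% confidence interval of -0.88 to 0.54, or -0.38 to 0.04 with the block. It turned positive when either CD73 siRNA replicate 3 (0.064) or negative control replicate 2 (0.057) was left out.

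**Figure D3:**
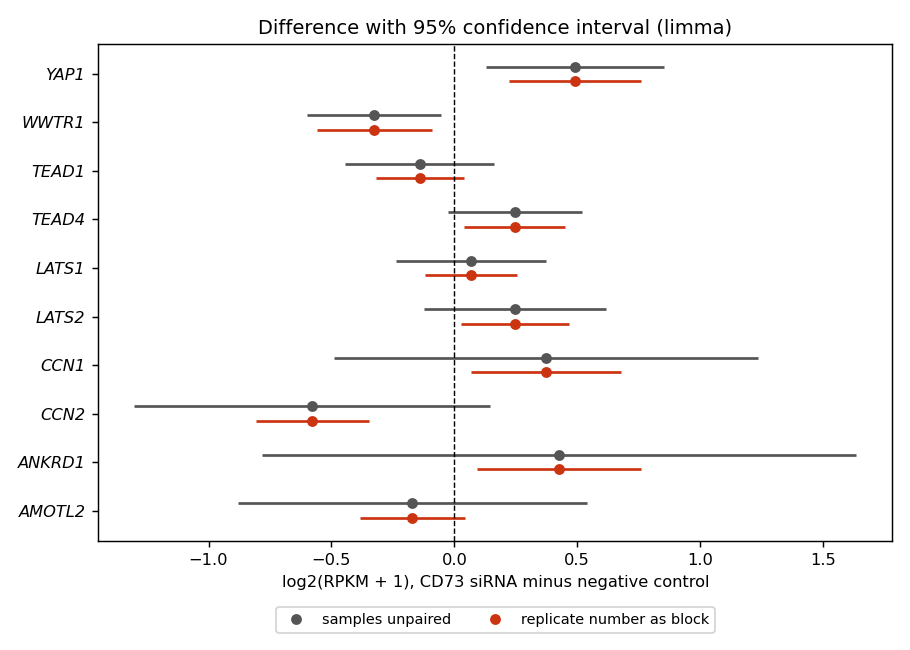
Difference in log2(RPKM + 1), CD73 siRNA minus negative control, for the 10 genes, with points for the estimate and lines for the 95% confidence interval of limma. Grey is the unpaired fit and red the blocked fit (replicate number); in red the intervals of CCN1, CCN2, ANKRD1, LATS2 and TEAD4 no longer reach 0, while those of TEAD1, LATS1 and AMOTL2 still do.

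Across the set, limma called 0 of the 10 genes at an unadjusted p below 0.01, against 3.13% of all tested genes, and 2 (YAP1 and WWTR1) at a p below 0.05, against 12.1%. A linear model per gene without moderation also called 0. With the block 2 of the 10 were called, YAP1 higher (4.27% of all genes) and CCN2 lower (3.3% of all genes), against 7.57% in either direction, and 7 had a p below 0.05, against 23.3%. The groups did not overlap in 2 of the 10, against 18.4% of all genes, a share near the background. They were YAP1, higher as were 10.3% of all genes, and WWTR1, lower as were 8.07%. The difference had the same sign in all 3 pairs for 9 of the 10, with 5 higher and 4 lower, against 51.4% of all genes (27% higher and 24.5% lower). The exception was CCN1. Coactivators, TEAD factors and targets each had members on both sides of 0.

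The replicate number accounted for most of the variation of several members. The sum of squares of log2(RPKM + 1) over the 6 samples was divided into shares for siRNA, replicate number and remainder. The number took 93.9% in LATS1, 93.9% in AMOTL2, 90.0% in ANKRD1 and 82.0% in CCN1, whereas the siRNA took 5.80%, 3.97%, 8.01% and 11.5%. CCN2 stood between them, with 66.2% for the number and 31.3% for the siRNA. In YAP1, WWTR1 and TEAD4 the siRNA took the larger share, 63.0%, 66.0% and 53.7%. An siRNA share above 50% was found in 21.0% of all tested genes. The replicate number has more levels than the siRNA, so random variation alone gives it the larger share on average. The number took over 50% in 7 of the 10 genes and in 51.9% of all tested genes. The means of both replicate 2 samples were 190 RPKM for CCN1 and 3.94 RPKM for ANKRD1, against 86.3 and 0.487 RPKM for replicate 3. What the numbers stand for beyond separate knockdown experiments is not given in the sources used here.

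**Figure D4:**
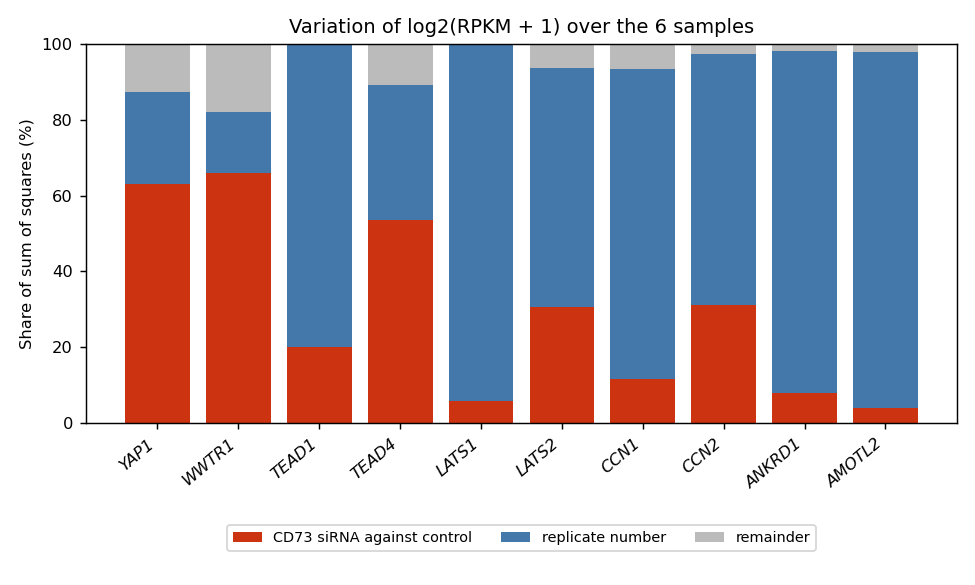
Shares (%) of the sum of squares of log2(RPKM + 1) over the 6 samples for each of the 10 genes, stacked as CD73 siRNA against control (red), replicate number (blue) and remainder (grey). The siRNA share exceeds 50% in YAP1, WWTR1 and TEAD4, as in 21.0% of all tested genes, and is below 10% in LATS1, ANKRD1 and AMOTL2.

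A wider list of 21 YAP and TAZ targets, written from general knowledge and without NT5E, placed the members among their fellow targets. The list was written with earlier results of these data known, so its counts are given as a description. Of its 17 tested genes, 14 had a log2 fold change below 0 (6016 of all 12527 genes did) and 3 above it, and the 3 above it were the members LATS2, CCN1 and ANKRD1. The median log2 fold change was -0.27, against 0.01 over all tested genes. Without the filter on low values, 14 of the 21 genes lay below 0 and 7 above it, and the median was -0.17. In the numbered pairs the median was -0.38, -0.14 and -0.26, and 12 of the 17 genes were lower in all 3 pairs, as were 24.5% of all genes. Limma called 1 of the 17 genes lower, against 1.31% of all genes, and 0 higher. At a p below 0.05 there were 4 lower and 0 higher, against 12.1% of all genes in either direction. The gene called was CRIM1, a membrane protein that binds growth factors, which fell and stood at 109 ± 12.6 RPKM after CD73 siRNA and 151 ± 5.01 RPKM in the controls (SD, n = 3 each), and had a log2 fold change of -0.47 (SE 0.11, adjusted p = 0.303 from limma). NUAK2, a kinase that promotes YAP activity, stood at 4.78 ± 2.76 RPKM after CD73 siRNA and at 9.50 ± 3.40 RPKM in the controls (SD, n = 3 each). Its log2 fold change of -0.91 (SE 0.36) missed the threshold unpaired, with an unadjusted p of 0.0359. It passed the threshold when CD73 siRNA replicate 2 (-1.27) or negative control replicate 3 (-1.21) was left out, whereas it was -0.72 when negative control replicate 1 and -0.61 when CD73 siRNA replicate 3 was left out. DOCK5 stood at 7.74 ± 1.27 and 9.83 ± 0.77 RPKM (SD, n = 3 each), and its log2 fold change was -0.32.
With the block, 5 of the 17 targets were called, against 7.57% of all genes (3.3% lower). All 5 were lower, namely CRIM1, NUAK2, CCN2, AXL and GADD45A. AXL, a receptor tyrosine kinase named after its values were seen, was lower in every pair, by -0.79, -0.50 and -0.36 on the log2 scale. Unpaired it had a p of 0.164 from limma, and the log2 fold change of -0.55 became -0.22 without negative control replicate 2 and -0.90 without CD73 siRNA replicate 2. GADD45A, named likewise, differed by -0.88, -0.10 and -0.86. Its unpaired p was 0.237 from limma, and its log2 fold change of -0.61 became -0.20 without CD73 siRNA replicate 3 and -1.16 without CD73 siRNA replicate 2, where it passed the threshold. Another 4 genes of the list (F3, IGFBP3, CCDC80 and RBMS3) were below the filter on low values, at or below 1.06 RPKM in every sample.

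**Figure D5:**
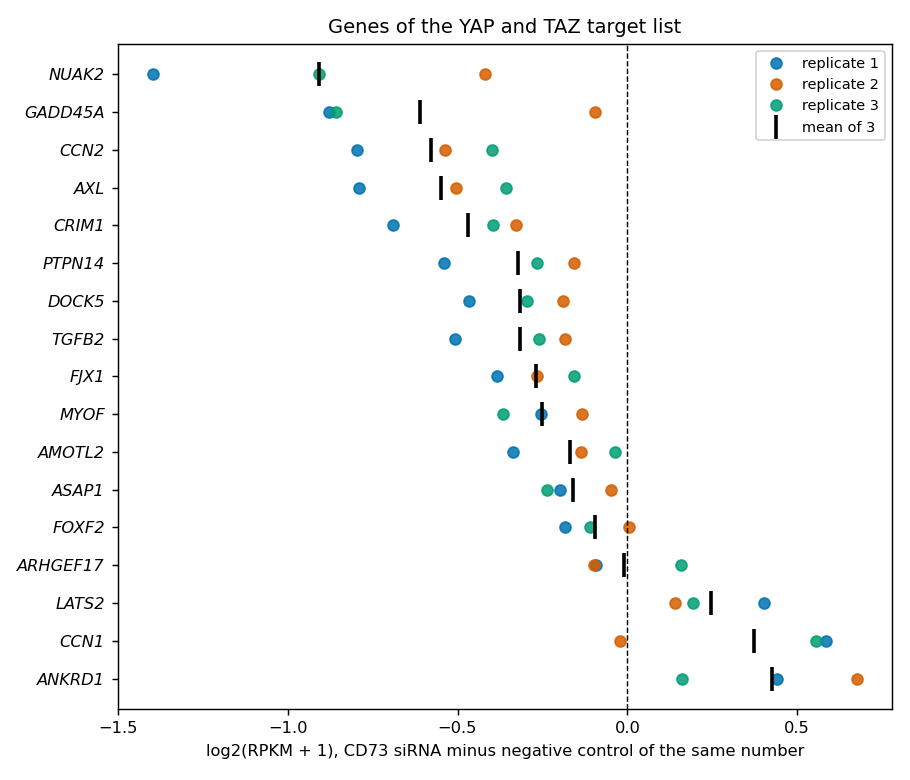
Difference in log2(RPKM + 1) between CD73 siRNA and the negative control of the same replicate number for the 17 tested genes of the YAP and TAZ target list, with coloured points for the 3 replicates and a black bar for their mean. Bars of 14 genes lie left of 0 and those of LATS2, CCN1 and ANKRD1 right of it; the replicate 2 point of CCN1 lies just below 0 (-0.02).

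In the upstream part of the pathway no gene passed the unpaired threshold. Of 30 Hippo kinases and upstream regulators 28 were tested, LATS1, LATS2 and AMOTL2 among them. Limma called 0 of them, with 1 higher and 2 lower at a p below 0.05 (12.1% of all genes in either direction), and the median log2 fold change was -0.05. The 3 with the smallest p were MAP4K4, MOB1A and PTPN14. MAP4K4, a kinase that activates LATS, stood at 13.9 ± 1.32 RPKM after CD73 siRNA and at 10.1 ± 2.06 RPKM in the controls (SD, n = 3 each), and its log2 fold change was 0.45. MOB1A, the LATS-binding scaffold, stood at 48.8 ± 2.64 and 57.4 ± 2.59 RPKM (SD, n = 3 each), and its log2 fold change was -0.23. PTPN14, an inhibitor of YAP and itself a YAP target, stood at 19.3 ± 2.33 and 24.4 ± 3.21 RPKM (SD, n = 3 each), and its log2 fold change was -0.32. With the block 1 of the 28 genes passed the threshold, against 7.57% of all genes. It was AMOTL1, an angiomotin relative of AMOTL2, named after its values were seen. AMOTL1 had a log2 fold change of 0.42 (unadjusted p = 0.00771 from limma with the block). The core kinases STK3 and STK4 had log2 fold changes of 0.12 and -0.10, and the scaffold SAV1 had -0.10. Without negative control replicate 2, MAP4K4 passed the threshold with a log2 fold change of 0.58. Of the coactivator, TEAD and VGLL list, 9 of 10 genes were listed and 7 tested, and beside the members VGLL4, a TEAD-binding repressor, had a log2 fold change of 0.08.

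Among the 12527 tested genes, those whose pattern over the 6 samples was most like that of CCN2 were DUSP23, PXDC1, ZNF800, DDRGK1 and BUD23. Their Pearson correlations with CCN2 lay between 0.991 and 0.995, and 91 genes exceeded 0.95. For YAP1 they were DHX38, CEP250, TBC1D32, GANAB and INTS14, between 0.996 and 0.999, with 327 genes above 0.95. Among the members, the highest correlations were those of LATS1 with ANKRD1 (0.98) and with CCN1 (0.97). YAP1 correlated at 0.95 with TEAD4 and at -0.84 with WWTR1, and CCN1 at 0.92 with ANKRD1 but at 0.36 with CCN2. These correlations describe 6 samples that share the siRNA groups and the replicate numbers.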

How the data were processed

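RNA-seq of 6 PANC-1 samples was used. The authors deposited, per sample, values for 30735 Ensembl genes, read here as RPKM, that is reads normalized by the authors to gene length and library total. The unit is not stated in the sources used here. The values were multiplied by the merged exon length of GENCODE release 29 and by a read total per library. That total was itself fitted, as the one that made low values most nearly whole numbers. With it they were whole reads, within 0.02 read, in 95.1% to 95.2% of genes below 1000 reads. The submitters' processing notes name bcl2fastq, Bowtie2 2.2.3, HTSeq 0.6.0 and hg38. Strand-specific counting is not stated, and other listed genes annotated over members had at most 2.60 RPKM. Coordinates are from GENCODE release 29 (GRCh38), and 132 genes lacked a length. Genes reaching 1 RPKM or more in 3 or more samples were compared on log2(RPKM + 1), which understates changes of low genes, with limma 3.58.1 (trend, R 4.3.3) and Benjamini-Hochberg adjustment over 12527 genes. The study describes the replicates as separate knockdown experiments, which the labels do not state, and p-values measure the spread between these samples. Same-numbered samples correlated at 0.20, 0.48 and 0.55 in their deviations from group means, and the number, taken from the labels, was used as a block in an alternative fit. Other alternatives were a pseudocount of 0.1, no filter, median-of-ratios scaling, no moderation and each sample left out. Members and lists were chosen with earlier results of these data known. Named by rule were all members and NT5E, per list the genes past the threshold or the 3 smallest p, and 5 genes most like CCN2 and YAP1. Genes outside this rule were also described, among them TEAD2, TEAD3, STK3, STK4, SAV1 and VGLL4. So were AXL, GADD45A, AMOTL1 and ACTB, after their values were seen. The fit was tested on simulated data.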

Additional observations from a re-analysis of the deposited data

How the results depend on the processing

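With the replicate number as a block, taken from the shared numbers in the labels, 535 genes were called higher and 413 lower, against 228 and 164 unpaired, and 2 of the 10 members were called, against 0. They were YAP1 (log2 fold change 0.49) and CCN2 (-0.58). The block changed no other call among the 10 members and NT5E. Without moderation across genes, 119 genes were called higher and 97 lower, and NT5E (-1.23) missed the threshold with an unadjusted p of 0.023. Median-of-ratios scaling, a pseudocount of 0.1 and testing without the low-value filter kept the direction and the side of the threshold of NT5E and the 10 members. Leaving out each sample in turn gave 56 to 543 genes called higher, the lowest without CD73 siRNA replicate 1 and the highest without negative control replicate 2, and 54 to 248 called lower, at the same extremes. It gave 0 to 2 members called. The log2 fold changes ranged from 0.35 to 0.66 for YAP1, 0.094 to 0.82 for CCN1, -0.92 to -0.33 for CCN2, -0.023 to 0.17 for LATS1, -0.47 to 0.064 for AMOTL2, 0.15 to 0.38 for LATS2, -0.23 to -0.058 for TEAD1, 0.22 to 0.60 for AMOTL1 and -0.13 to 0.13 for TEAD2. The median of the target list ranged from -0.41 to -0.20 and that of the Hippo kinase list from -0.075 to 0.011. ANKRD1 fell below the filter without CD73 siRNA replicate 1 or 2 or negative control replicate 2 and could not be fitted there, and ranged from 0.13 to 0.85 otherwise. The cause of these dependences was not tested. With 3 samples per group and 12 to 158 reads, the change of ANKRD1 is the least precise of the members.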

Other observations

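CCN1, CCN2 and ANKRD1 are also targets of SRF and its actin-sensing cofactors MRTF, so a list of 16 such genes was examined beside the YAP targets. Of its 14 tested genes, 7 had a log2 fold change above 0 and 7 below it, with a median of 0.01. Limma called 0 of them at an unadjusted p below 0.01, against 3.13% of all genes. At a p below 0.05 there were 1 higher and 1 lower, against 12.1% of all genes in either direction. VCL, which encodes the focal adhesion protein vinculin, stood at 57.8, 63.4 and 72.1 RPKM after CD73 siRNA and at 98.1, 71.7 and 104 RPKM in the controls, a log2 fold change of -0.48 (SE 0.16). MYH9, the heavy chain of nonmuscle myosin IIA, stood at 128, 126 and 143 RPKM against 61.6, 113 and 104 RPKM, a log2 fold change of 0.55 (SE 0.21). SRF itself stood at 22.5 ± 2.01 RPKM after CD73 siRNA and at 18.5 ± 2.46 RPKM in the controls (SD, n = 3 each), and its log2 fold change was 0.27. With the replicate number as a block, VCL was called lower and ACTB, named after its values were seen, was called higher with a log2 fold change of 0.29. In that fit 7.57% of all genes were called. Without negative control replicate 2, VCL and MYH9 passed the threshold unpaired, with log2 fold changes of -0.65 and 0.71. Without negative control replicate 1 that of MYH9 was 0.28, and without negative control replicate 3 that of VCL was -0.38, neither past the threshold.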
